A study of Homo sapiens with 6 samples.

Results

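The genes described here are 10 cytokine genes grouped as IL6 and NF-kB driven cytokines, namely IL6, IL8, CXCL1, CXCL2, CXCL3, CCL2, CCL20, IL1B, LIF and IL23A. They were taken by symbol from a deposited table of 57905 genes, and each symbol matched 1 row. The list was chosen with earlier results of these same libraries known, selected on the difference between the groups, and IL6 and IL23A are also among the genes that the study picked on these libraries. The difference between the groups in these 10 genes is therefore a description, with no test of its own.

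RNA-seq was performed on HK-2 cells, an immortalized human proximal tubular cell line. The control siRNA group held 3 libraries of cells given a non-targeting siRNA pool, and the INO80 siRNA group held 3 libraries of cells given siRNAs pooled against INO80, the ATPase subunit of a chromatin remodeling complex. Both groups received the same transfection reagent and were harvested after 48 h, and no cytokine or other stimulus is named for either group. The line limits the model to 1 immortalized cell line, and the labels do not say whether replicates of a group came from separate cultures.

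NF-kB is held in the cytoplasm by inhibitors of the IkB family until kinases activated by cytokine or pattern receptors mark those inhibitors for degradation. The freed dimers of RELA and NFKB1 then enter the nucleus and bind promoters of cytokine and chemokine genes, often beside AP-1 and C/EBP factors. Tubular epithelial cells release such cytokines in injured kidney, where IL6 and LIF signal through receptors that share IL6ST and where the chemokines attract neutrophils, monocytes and lymphocytes.

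The promoters are shown first, because NF-kB binding just before the transcription start is described for several of these genes. RefSeq promoters (GRCh38.p14) matched 8 of the 10 genes, and CCL2 and LIF were not matched. The 150 bases before the annotated start are printed 5′ to 3′ on the strand of the gene for the 7 genes other than IL1B, whose stretch holds no match. Capitals mark matches that lie wholly in the stretch to the NF-kB consensus, to a shorter NF-kB motif (GGNNTTTCC) or to the AP-1 motif (TGANTCA), each searched on both strands.
IL6: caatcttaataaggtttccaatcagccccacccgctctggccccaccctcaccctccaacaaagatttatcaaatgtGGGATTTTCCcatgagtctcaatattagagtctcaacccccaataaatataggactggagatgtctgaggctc
IL23A: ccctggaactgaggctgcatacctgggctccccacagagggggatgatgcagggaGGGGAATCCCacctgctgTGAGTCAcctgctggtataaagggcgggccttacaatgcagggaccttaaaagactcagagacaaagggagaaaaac
CCL20: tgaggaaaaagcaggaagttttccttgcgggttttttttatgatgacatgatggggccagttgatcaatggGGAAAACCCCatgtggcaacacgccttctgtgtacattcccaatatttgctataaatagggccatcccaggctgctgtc
IL8: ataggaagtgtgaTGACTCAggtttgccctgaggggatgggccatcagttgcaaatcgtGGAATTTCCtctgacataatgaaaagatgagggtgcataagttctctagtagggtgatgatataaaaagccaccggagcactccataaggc
CXCL1: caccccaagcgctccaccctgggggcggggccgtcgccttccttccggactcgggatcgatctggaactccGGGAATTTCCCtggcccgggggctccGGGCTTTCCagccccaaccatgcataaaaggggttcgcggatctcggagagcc
CXCL2: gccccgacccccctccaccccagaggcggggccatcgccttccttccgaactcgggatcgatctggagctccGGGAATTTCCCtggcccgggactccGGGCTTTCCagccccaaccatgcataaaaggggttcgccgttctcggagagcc
CXCL3: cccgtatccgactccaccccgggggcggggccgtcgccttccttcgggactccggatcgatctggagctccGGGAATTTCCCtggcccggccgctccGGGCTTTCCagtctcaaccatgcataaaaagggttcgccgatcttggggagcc
In GRCh38.p14 these stretches lie at chr7:22727050-22727199 for IL6, chr12:56338734-56338883 for IL23A, chr2:227813692-227813841 for CCL20, chr4:73740419-73740568 for IL8 and chr4:73869243-73869392 for CXCL1, all on the plus strand. Those of CXCL2 (chr4:74099196-74099345) and CXCL3 (chr4:74038690-74038839) are on the minus strand.

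Over the whole RefSeq window of 250 bases before to 50 bases after the start, the NF-kB consensus was found in 6 of the 8 promoters, those of IL6, CXCL1, CXCL2, CXCL3, CCL20 and IL23A. It was found in 5.91% of all 35116 promoters in that table. The shorter motif was also found in 6 of the 8, with IL8 in place of IL23A, against 6.26% of all promoters. In the IL6 promoter the consensus match lay at positions -73 to -64 from the start, and the shorter motif overlapped it at -72 to -64. The IL23A match lay at -95 to -86 and the CCL20 match at -79 to -70, and IL8 held the shorter motif at -91 to -83 and not the consensus. An AP-1 motif was found in 2 of the 8, IL8 and IL23A, against 7.71% of all promoters. A C/EBP motif (TTGCNNAA) was found in 3 of the 8, IL6, CXCL2 and IL1B, against 10.5% of all promoters, and none of these C/EBP matches lay wholly within the stretches printed. Compared without gaps over the 100 positions before the start, the promoters of CXCL1 and CXCL3 had the same base at 90, those of CXCL1 and CXCL2 at 73 and those of CXCL2 and CXCL3 at 67. The first consensus match began at -78 in CXCL2 and at -79 in CXCL1 and CXCL3, while a shorter match began at -53 in each. Bases further from the start were thus compared out of register for CXCL2, so the counts that involve CXCL2 understate its likeness. A match is a description of the letters and not of a bound site. Because these genes were grouped as NF-kB driven, and CXCL1, CXCL2 and CXCL3 are close relatives, nothing is read from the NF-kB shares.

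INO80 itself checks the labels. Its level was 46.3, 49.3 and 54.0 CPM (read counts scaled to TMM-normalized library size) in control siRNA replicates 1, 2 and 3 and 13.78, 12.05 and 14.16 CPM in INO80 siRNA replicates 1, 2 and 3, a fitted log2 difference of -1.91 (standard error 0.069). Total counts per library ran from 16829273 to 20311588 under control siRNA and from 20678008 to 23784599 under INO80 siRNA. HK-2 identity was uneven by its markers. Among 5 epithelial markers, KRT8, KRT18, KRT19 and EPCAM were expressed and CDH1 was at or under 0.49 CPM, and of 8 proximal tubule markers GGT1, MME and SLC5A2 passed the filter on low counts, while LRP2, CUBN, AQP1, ANPEP and SLC34A1 did not. Leukocyte markers were close to absent. PTPRC and CD3E had no read in any library, and the summed level of the 6 leukocyte markers was 0.33 to 0.60 FPKM under control siRNA and 0.45 to 0.69 FPKM under INO80 siRNA.

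The comparison asks which of these genes differ when INO80 is reduced. The counts of the 15343 genes that passed the filter were fitted in edgeR by its quasi-likelihood method, with the replicate number as a block. Standard errors of log2 fold changes come from the F statistic of the fit, which shares the spread across genes. They are not the spread of the replicate pairs of a single gene, which can be wider. A gene is called here when its p, adjusted over all 15343 genes by the Benjamini-Hochberg method, was under 0.05. Of the 10 cytokine genes 9 passed the filter and IL1B did not. IL6, IL23A, CCL20, LIF and IL8 were called lower under INO80 siRNA, 5 of 9, where 13.4% of all tested genes were called lower. None of the 9 was called higher, where 11.4% of all tested genes were called higher. With the further condition of a log2 fold change of 1 or more in size, IL6 and IL23A remained, 2 of 9, where 0.385% of all tested genes were called lower by that rule. Without the block no cytokine gene was called, 0 of 9, where 1.75% of all tested genes were called, and 2 of the 9 and 2514 of all genes had an unadjusted p under 0.05. Since the list was chosen by this contrast, nothing is read from these shares. The median log2 fold change was -0.21 over the 9 genes and 0.01 over all tested genes. The groups did not overlap in CPM for IL6 and IL23A, 2 of 9, where 22.8% of all tested genes did not overlap.

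**Figure D1:**
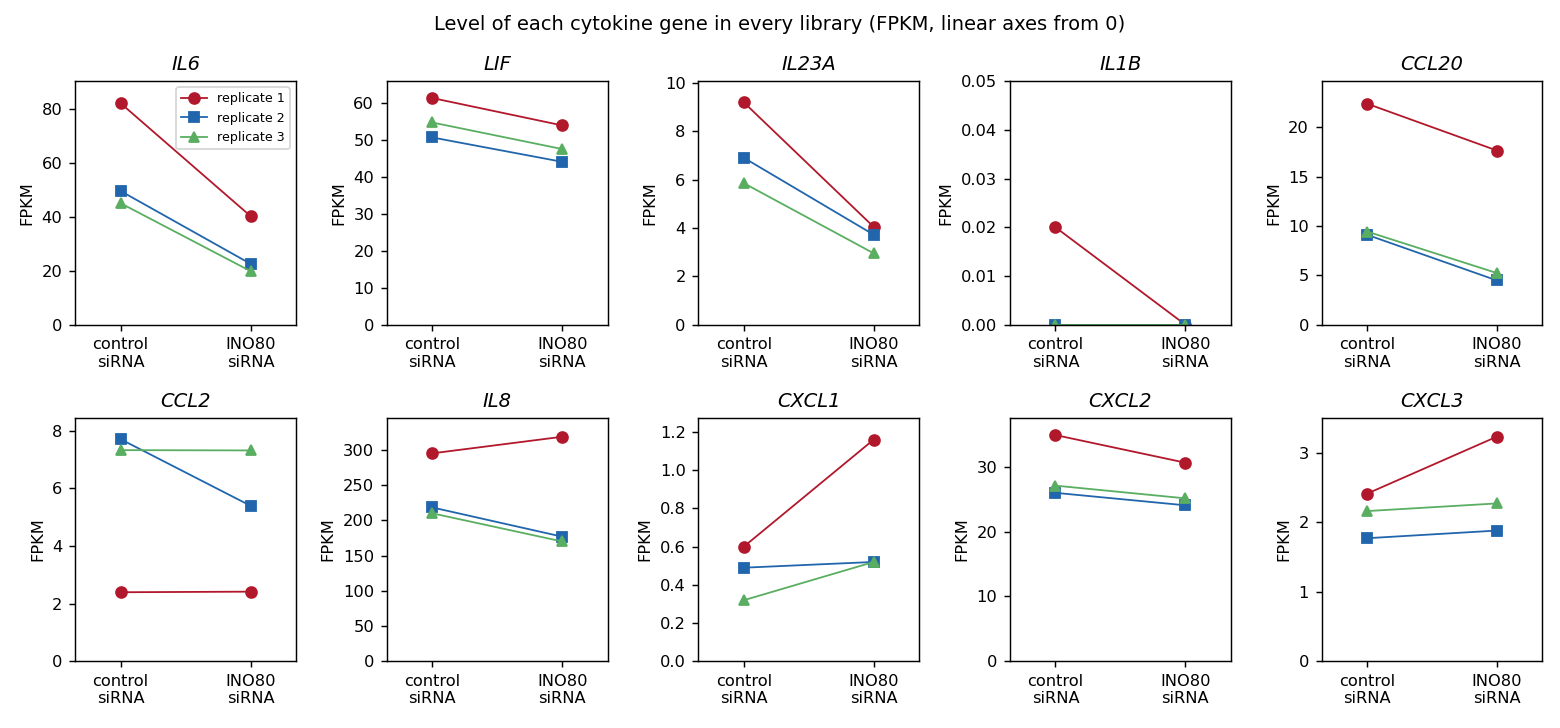
Level of each of the 10 cytokine genes in FPKM (linear axes that start at 0, with a different range in each panel) in the control siRNA and INO80 siRNA libraries. Each point is 1 library and each line joins libraries of the same replicate number. The lines of IL6, LIF, IL23A, CCL20 and CXCL2 fall in all 3 pairs, those of CXCL1 and CXCL3 rise in all 3 pairs, and replicate 1 stands above replicates 2 and 3 in both groups for every gene with counts in all libraries except CCL2, where it stands below.

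Levels between genes were compared in FPKM, which takes gene length into account. IL8 had the highest level of the 10 in every library, between 170.04 and 318.49 FPKM. IL6 and LIF followed under control siRNA, with ranges of 45.2 to 82.3 and 50.6 to 61.3 FPKM that overlapped each other. Under INO80 siRNA the order of these genes was LIF, with 44.0 to 53.9 FPKM, above IL6, with 19.9 to 40.4 FPKM, and these ranges no longer overlapped. IL6 then overlapped CXCL2, whose range was 24.0 to 30.6 FPKM. CCL20, IL23A, CCL2 and CXCL3 followed in that order under control siRNA and in the order CCL20, CCL2, IL23A and CXCL3 under INO80 siRNA, and within each group the range of each of these 4 genes overlapped that of its neighbour. CXCL1 stayed between 0.32 and 1.16 FPKM, and IL1B was near 0.

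IL6 (ENSG00000136244, chromosome 7, 22765503 to 22771621 in GRCh37, plus strand) encodes the cytokine that signals through IL6R and IL6ST. Its level was 82.3, 49.7 and 45.2 FPKM in control siRNA replicates 1, 2 and 3 and 40.4, 22.6 and 19.9 FPKM in INO80 siRNA replicates 1, 2 and 3. Every INO80 siRNA library was below every control siRNA library, although INO80 siRNA replicate 1 came close to control siRNA replicates 2 and 3. The counts behind these levels were 3755, 2736 and 2351 reads under control siRNA and 2262, 1458 and 1284 reads under INO80 siRNA. Group means were 59.0 ± 20.3 and 27.6 ± 11.1 FPKM (SD, n = 3 each). The fitted log2 fold change of IL6 was -1.12 (standard error 0.043), a level 2.17-fold lower. Within the replicate pairs the log2 ratio was -1.03, -1.15 and -1.20, so the pairs differed little from each other although replicate 1 was the highest library of each group. Without the block the log2 fold change was -1.10 with a standard error of 0.317, and IL6 was no longer called. In RNA from whole cultures, fewer cells that express a gene and less RNA per cell cannot be told apart.

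A gene on the opposite strand, AC073072.5 (ENSG00000179428, chromosome 7, 22765014 to 22767239 in GRCh37), overlapped 1737 of the 6119 bases that IL6 spans. It had 33, 22 and 30 reads under control siRNA and 15, 30 and 34 reads under INO80 siRNA, against 1284 or more reads on IL6 in every library. For this gene the log2 fold change was -0.41 with a standard error of 0.314 (adjusted p = 0.382 in edgeR), and its groups overlapped. The library kit keeps the strand, but whether the counting used it is not given in the sources used here.

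LIF (ENSG00000128342, chromosome 22, 30636436 to 30642840, minus strand) encodes the ligand of LIFR and IL6ST, which supports stem cells and acts in inflammation. Its level was 61.3, 50.6 and 54.7 FPKM in control siRNA replicates 1, 2 and 3 and 53.9, 44.0 and 47.5 FPKM in the INO80 siRNA replicates. The groups overlapped, and each INO80 siRNA library was below the control siRNA library of its own number. LIF had a fitted log2 fold change of -0.21 (standard error 0.0352) and the pairs gave -0.18, -0.22 and -0.22. RP1-102K2.8 on the opposite strand overlapped 857 bases of LIF and had 55 to 107 reads per library against 4080 or more on LIF, with a log2 fold change of 0.21 ± 0.165 (SE, adjusted p = 0.384 in edgeR). RP1-102K2.6 overlapped 92 bases and had at most 10 reads.

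IL23A (ENSG00000110944, chromosome 12, 56732663 to 56734193, plus strand) encodes a cytokine subunit that is secreted when bound to the product of IL12B and that sustains inflammatory T helper cells. Its level was 9.19, 6.90 and 5.85 FPKM under control siRNA and 4.04, 3.72 and 2.95 FPKM under INO80 siRNA. All INO80 siRNA libraries were below all control siRNA libraries. The group means were 7.31 ± 1.71 and 3.57 ± 0.560 FPKM (SD, n = 3 each). The log2 fold change was -1.03 (standard error 0.140) from 117 to 161 reads per control siRNA library and 73 to 92 reads per INO80 siRNA library, and the pairs gave -1.18, -0.91 and -1.01. Its partner IL12B had at most 4 reads in any library.

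IL1B (ENSG00000125538, chromosome 2, 113587328 to 113594480, minus strand) encodes the precursor of interleukin 1 beta, which inflammasome caspases cleave. A single read was counted in control siRNA replicate 1 and 0 reads in each of the other 5 libraries, and a count of 0 allows up to 3 reads, for counting error only. No difference was detectable at this depth. IL1A, which encodes the related interleukin 1 alpha, had 6 to 14 reads per library and did not pass the filter.

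CCL20 (ENSG00000115009, chromosome 2, 228678558 to 228682272, plus strand) encodes the chemokine that attracts lymphocytes and dendritic cells through CCR6. Its level was 22.4, 9.11 and 9.44 FPKM in control siRNA replicates 1, 2 and 3 and 17.6, 4.48 and 5.23 FPKM in INO80 siRNA replicates 1, 2 and 3. INO80 siRNA replicate 1 was above control siRNA replicates 2 and 3, so the groups overlapped, while each pair was lower under INO80 siRNA. The log2 fold change was -0.67 (standard error 0.108), a level 1.59-fold lower, and the pairs gave -0.34, -1.04 and -0.87. Without the block the standard error was 0.563 at a log2 fold change of -0.59.

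CCL2 (ENSG00000108691, chromosome 17, 32582304 to 32584222, plus strand) encodes the monocyte chemoattractant that binds CCR2. It had 2.40, 7.71 and 7.33 FPKM under control siRNA and 2.42, 5.40 and 7.32 FPKM under INO80 siRNA. The groups overlapped, and replicate 1 was the low library of both. The log2 fold change of -0.21 (standard error 0.141) came almost entirely from replicate pair 2, with -0.53, beside 0.02 in pair 1 and -0.02 in pair 3. AC005549.3, which overlaps 3 bases of CCL2 on the opposite strand, had at most 1 read.

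IL8, the symbol in the table for CXCL8 (ENSG00000169429, chromosome 4, 74606223 to 74609433, plus strand), encodes a neutrophil attractant that binds CXCR1 and CXCR2. Its level was 294.98, 218.32 and 209.99 FPKM under control siRNA and 318.49, 176.86 and 170.04 FPKM under INO80 siRNA. Replicate 1 went the other way from replicates 2 and 3, with a log2 ratio of 0.11 against -0.32 and -0.32. The log2 fold change of -0.17 (standard error 0.0517) was called, but it was not called without control siRNA replicate 2 or 3 or without INO80 siRNA replicate 2 or 3. Over the 6 fits that leave out 1 library it ran from -0.32 to -0.10. DESeq2 with the block did not call it either.

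CXCL1, CXCL2 and CXCL3 (chromosome 4, GRCh37) encode closely related neutrophil attractants that bind CXCR2. They are paralogs, and whether reads were shared or split among them was not tested. CXCL2 (ENSG00000081041, 74962752 to 74965010, minus strand) had 34.86, 25.96 and 27.07 FPKM under control siRNA and 30.60, 24.04 and 25.11 FPKM under INO80 siRNA, with overlapping groups and a log2 fold change of -0.15 (standard error 0.0551) that was not called. CXCL3 (ENSG00000163734, 74902306 to 74904524, minus strand) had 2.41, 1.77 and 2.16 FPKM under control siRNA and 3.23, 1.88 and 2.27 FPKM under INO80 siRNA. Its log2 fold change was 0.19 (standard error 0.146), most of it from pair 1 with 0.42. CXCL1 (ENSG00000163739, 74735110 to 74736959, plus strand) had 0.60, 0.49 and 0.32 FPKM under control siRNA and 1.16, 0.52 and 0.52 FPKM under INO80 siRNA. These levels rest on 8 to 31 reads per library, and the log2 fold change of 0.58 (standard error 0.380) was not called. The pairs gave 0.96, 0.06 and 0.67, and the value was 0.33 without replicate 1 of either group and 0.84 without replicate 2 of either group. CXCL1 and CXCL3 were higher in each of the 3 pairs and CXCL2 was lower in each of the 3 pairs, and none of these 3 genes was called.

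**Figure D2:**
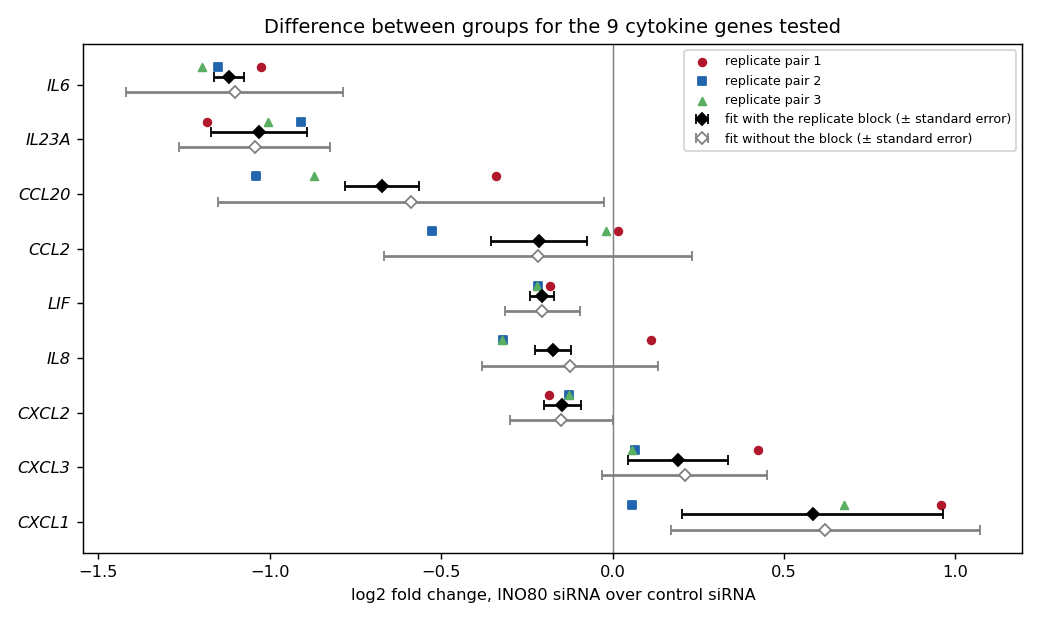
Log2 fold change of INO80 siRNA over control siRNA (horizontal axis) for the 9 cytokine genes tested (vertical axis). Black diamonds are the fit with the replicate block and open diamonds the fit without it. Bars are ± 1 standard error of the fit, whose spread is shared across genes, and coloured points are the log2 ratios within replicate pairs. IL6 and IL23A lie near -1 in every pair, CCL20 is spread from -1.04 to -0.34, and the bars without the block are longer for all 9 genes, for IL6 0.317 against 0.043.

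The levels of most of these genes also differed by replicate number. In the same fit, an F test of the replicate number called 8 of the 9 cytokine genes, all but CXCL1, where 26.7% of all tested genes were called. The count differed between fits. Without replicate 1 of both groups, 2 of the 9 were called for the replicate number, IL6 and LIF, where 11.1% of all genes were called. DESeq2 with all libraries called 6 of the 9, where 13.9% of the genes that it gave an adjusted p for the replicate number were called. The fit without replicate 1 holds fewer libraries, and none was run without replicate 2 or 3 of both groups. The lower count therefore cannot be assigned to replicate 1. The difference between replicate 1 and the mean of replicates 2 and 3, on the log2 CPM scale, was 1.32 under control siRNA and 1.93 under INO80 siRNA for CCL20. For IL6 it was 0.84 and 0.99, and for IL8 0.51 and 0.94. CXCL1, with 0.63 and 1.22, CXCL3, with 0.35 and 0.71, and IL23A, with 0.58 and 0.35, were also higher in replicate 1 of both groups. CXCL2 had 0.44 and 0.38 and LIF 0.27 and 0.30. CCL2 went the other way in both groups, with -1.60 and -1.31.

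**Figure D3:**
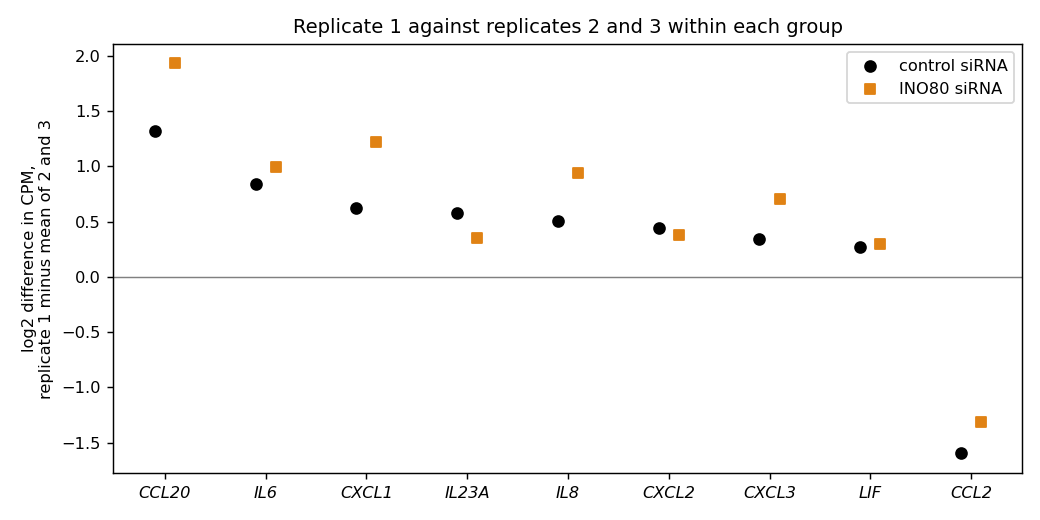
Log2 CPM of replicate 1 minus the mean of replicates 2 and 3 (vertical axis) for the 9 cytokine genes tested (horizontal axis), in control siRNA libraries (black circles) and INO80 siRNA libraries (orange squares). In both groups 8 genes lie above 0 and CCL2 lies below, at -1.60 and -1.31.

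Some cell type markers differed with replicate number and with treatment as well. Of the 4 epithelial markers tested 4 were called for the replicate number, and for the treatment 2 were called lower (KRT19, with a log2 fold change of -0.23, and EPCAM, with -0.31) and 1 higher (KRT18, with 0.19). Of the 3 fibroblast markers tested DCN and LUM were called for the replicate number, and for the treatment LUM was called lower (-0.14) and DCN higher (0.32). Without the block none of the markers was called for the treatment, and no tested proximal tubule or leukocyte marker was called for it in either fit. DCN, a proteoglycan gene of fibroblasts, had 4.95, 0.87 and 0.80 FPKM in control siRNA replicates 1, 2 and 3 and 5.73, 1.12 and 1.17 FPKM in INO80 siRNA replicates 1, 2 and 3. LUM, another proteoglycan gene, had 106.02, 58.96 and 45.55 FPKM and 89.29, 58.07 and 42.51 FPKM in the same libraries. Of the 4 fibroblast markers, PDGFRA had 0.06 CPM or less and PDGFRB 0.99 CPM or less in any library, and the summed FPKM of the 4 ran from 46.5 to 111.04 under control siRNA and from 43.8 to 95.06 under INO80 siRNA. The part of these markers in the differences of the cytokine genes was not tested. Without replicate 1 of both groups IL6, CCL20, LIF, IL23A and IL8 were called lower, 5 of 9, where 14.1% of all genes were called lower, with log2 fold changes of -1.18, -0.96, -0.22, -0.96 and -0.32.

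Genes whose pattern over the 6 libraries was most like that of IL6 were found, as a description, by Pearson's r of log2 CPM. They were MNX1 (r = 0.999), NUDT13 (r = 0.999), DIAPH3 (r = 0.999), RAPGEF3 (r = 0.996) and LARP1B (r = 0.995). The libraries shared treatment and replicate number, and with the group means removed 2 of these genes, MNX1 and NUDT13, were again among the 5 with the highest r. A high r does not speak of the size of a change. MNX1 ran from 10.5 to 12.9 CPM, while IL6 ran from 53.0 to 229.01 CPM. RAPGEF3, with 88.1, 65.9 and 59.0 CPM under control siRNA and 58.3, 43.5 and 39.3 CPM under INO80 siRNA, had a log2 fold change of -0.59 (standard error 0.0488). Of the other cytokine genes, IL23A had r = 0.952 with IL6, LIF 0.908, CCL20 0.877, CXCL2 0.823, IL8 0.77, CXCL3 0.241, CXCL1 0.107 and CCL2 -0.496. IL23A, the highest of them, ranked 153 among the tested genes. With the group means removed, r was -0.975 for CCL2 and ran from 0.820 (CXCL3) to 0.974 (IL8) for the others.

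The other genes of the pathway were taken from 8 lists of 123 genes, of which 98 passed the filter. Among the 98, 17 were called lower, 11 higher and 70 were not called, that is 28.6% called in either direction, beside the 13.4% lower and 11.4% higher among all tested genes. Their median log2 fold change was 0.01, the same as over all tested genes to 2 decimals. Without the block 1 gene was called lower, IL1R1, and 1 higher, STAT3. The adjusted p-values below are from edgeR with the block over all tested genes. The alternatives counted below are not independent, since leaving out 1 library in effect takes its replicate pair out of the treatment difference.

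Of 27 other cytokines and chemokines, 15 passed the filter, 4 were called lower and 0 higher. CSF2, which encodes the growth factor GM-CSF, had 22.3, 11.7 and 8.95 CPM under control siRNA and 11.5, 7.33 and 6.85 CPM under INO80 siRNA, and its log2 fold change was -0.70 ± 0.109 (SE, adjusted p = 2.61e-05). CXCL5, a further neutrophil attractant, fell by 0.35 on the log2 scale ± 0.0551 (SE, adjusted p = 3.17e-05). IL11, a ligand that acts through IL6ST, fell by 0.26 (adjusted p = 0.00595) and CSF1, the macrophage growth factor, by 0.15 (adjusted p = 0.0168). CSF2 and CXCL5 kept their call under 11 of 12 alternatives, while IL11 lost it without replicate 3 of either group and CSF1 without replicate 2 or 3 of either group, and both lost it in DESeq2 with the block and without the block. Their log2 fold changes ran over all alternatives from -0.29 to -0.23 for IL11 and from -0.22 to -0.09 for CSF1. In CSF2 and IL11 replicate 1 was the highest library of each group, as in IL6. TNF, the classical activator of NF-kB, had 2.87, 1.22 and 0.78 CPM under control siRNA and 4.08, 1.20 and 0.74 CPM under INO80 siRNA, and it was not called (adjusted p = 0.579).

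Among 21 receptors and signalling genes of these cytokines 13 passed the filter, 3 were called lower and 3 higher. IL1R1, the signalling receptor of interleukin 1, had 26.3, 23.6 and 24.1 CPM under control siRNA and 15.9, 18.3 and 17.6 CPM under INO80 siRNA, without overlap. Its log2 fold change was -0.51 ± 0.0789 (SE, adjusted p = 2.47e-05), and it was also called without the block (adjusted p = 0.0388). STAT3, the transcription factor activated by IL6ST, had 122.8, 123.4 and 121.8 CPM under control siRNA and 156.8, 150.3 and 150.3 CPM under INO80 siRNA. It rose by a log2 fold change of 0.31 ± 0.0386 (SE, adjusted p = 9.29e-07) and was called without the block too (adjusted p = 0.0299). OSMR, the oncostatin M receptor, rose by 0.20 (adjusted p = 0.000493). RICTOR overlaps OSMR on the opposite strand, with a mean of 761.7 reads per library against 4049.3 on OSMR. SOCS3, a feedback inhibitor of the pathway, rose by 0.21 (adjusted p = 0.0189). The kinase gene JAK2 and the decoy receptor gene IL1R2 were the others called lower. SOCS3 and JAK2 lost the call without replicate 2 or 3 of either group, in DESeq2 with the block and without the block, with a log2 fold change between 0.16 and 0.26 for SOCS3 and between -0.47 and -0.24 for JAK2 over all alternatives. IL1R2 was called under 1 of 11 alternatives. IL6ST had a log2 fold change of 0.00 (standard error 0.0362), IL6R of 0.10 (0.0612) and LIFR of 0.17 (0.0767), and none of the 3 was called. The receptor genes CXCR1, CXCR2, CCR2, CCR6 and IL23R had no read in any library.

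Of 22 NF-kB subunits and upstream kinases, all of which passed the filter, 2 were called lower and 2 higher. RELA had a log2 fold change of 0.09 ± 0.0465 (SE, adjusted p = 0.196) and NFKB1 of -0.07 ± 0.0418 (SE, adjusted p = 0.257). TAB1, an activator of the kinase MAP3K7, fell by 0.49 on the log2 scale ± 0.0876 (SE, adjusted p = 0.000163), from between 15.98 and 17.96 CPM under control siRNA to between 11.7 and 13.1 CPM under INO80 siRNA. The kinase IRAK1 fell by 0.12 (adjusted p = 0.0101), while MAP3K7 itself rose by 0.12 (adjusted p = 0.0389) and the TNF receptor TNFRSF1A rose by 0.11 (adjusted p = 0.0429). TAB1 was called under 11 of 12 alternatives. IRAK1 and TNFRSF1A lost the call without replicate 2 or 3 of either group and without the block, and TNFRSF1A also in DESeq2 with the block (log2 fold changes of -0.14 to -0.09 and 0.10 to 0.13 over all alternatives), and MAP3K7 was called under 3 of 12.

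Of 12 inhibitors and feedback genes of NF-kB, 4 were called lower and 2 higher. TRAF1, an adaptor of TNF receptors that NF-kB induces, had 45.8, 33.2 and 34.8 CPM under control siRNA and 34.2, 20.7 and 20.1 CPM under INO80 siRNA, a log2 fold change of -0.62 ± 0.0692 (SE, adjusted p = 1.92e-07). TNIP2 and TNIP1, which bind the NF-kB inhibitor TNFAIP3, fell by 0.23 (adjusted p = 0.000383) and 0.16 (adjusted p = 0.0015). NFKBIA, the inhibitor IkB alpha and itself a target of NF-kB, fell by 0.15 (adjusted p = 0.00899). BIRC3, a ubiquitin ligase of the TNF receptor complex, rose by 0.19 (adjusted p = 0.00113). BCL3, an atypical IkB protein, was the other gene called higher, and the log2 fold change of TNFAIP3 was 0.03 ± 0.0525 (SE, adjusted p = 0.699). TRAF1, TNIP2 and BIRC3 were called under 11 of 12 alternatives. TNIP1 lost the call without replicate 3 of either group (-0.20 to -0.13 over all alternatives), NFKBIA without replicate 2 or 3 of either group (-0.21 to -0.12) and BCL3 without replicate 1 or 2 of either group (0.12 to 0.31). All 3 lost it without the block, and NFKBIA and BCL3 also in DESeq2 with the block.

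Of 19 other NF-kB targets 17 passed the filter, and 1 was called, SOD2, which was higher. SOD2, the mitochondrial superoxide dismutase, had 329.7, 304.95 and 258.6 CPM under control siRNA and 380.7, 393.99 and 341.5 CPM under INO80 siRNA, a log2 fold change of 0.33 ± 0.0371 (SE, adjusted p = 2.79e-07). ACAT2 and WTAP overlap SOD2 on the opposite strand, with means of 3447.5 and 2314.8 reads per library against 7012.8 on SOD2. The log2 fold change of ICAM1, the leukocyte adhesion molecule, was 0.02 ± 0.0389 (SE), that of PTX3, a pentraxin of the acute phase, was -0.09 ± 0.0687 (SE), and neither gene was called.

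Among 12 regulators of cytokine mRNA decay 4 were called lower and 1 higher. RC3H1 and RC3H2 encode the roquin proteins, which bind stem loops in cytokine mRNAs and start their decay. Both fell by 0.28 on the log2 scale (adjusted p = 0.0001 and 1.92e-05). ELAVL1, which encodes an RNA-binding protein that stabilizes such mRNAs, fell by 0.20 (adjusted p = 0.000642), and TIA1, a translational silencer, fell by 0.14 (adjusted p = 0.0378), the latter called under 2 of 12 alternative settings. C2orf42 overlaps TIA1 on the same strand, with a mean of 180.8 reads per library against 1205.8 on TIA1. KHSRP, which promotes decay, was higher by 0.12 (adjusted p = 0.0109) and lost the call without replicate 3 of either group, in DESeq2 with the block and without the block (0.08 to 0.15 over all alternatives), while RC3H1, RC3H2 and ELAVL1 kept it under 11 of 12. ZFP36, the decay factor tristetraprolin, had a log2 fold change of -0.04 ± 0.134 (SE, adjusted p = 0.862).

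For the 6 genes of IL1B processing 3 passed the filter and GSDMD, which forms the pore for interleukin 1 release, was called higher with a log2 fold change of 0.27 (adjusted p = 0.000891). Of the 4 C/EBP factors CEBPD was called higher with 0.33 (adjusted p = 0.000908), and CEBPB, the factor first known as the nuclear factor of IL6, had 0.00 (adjusted p = 0.979).

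**Figure D4:**
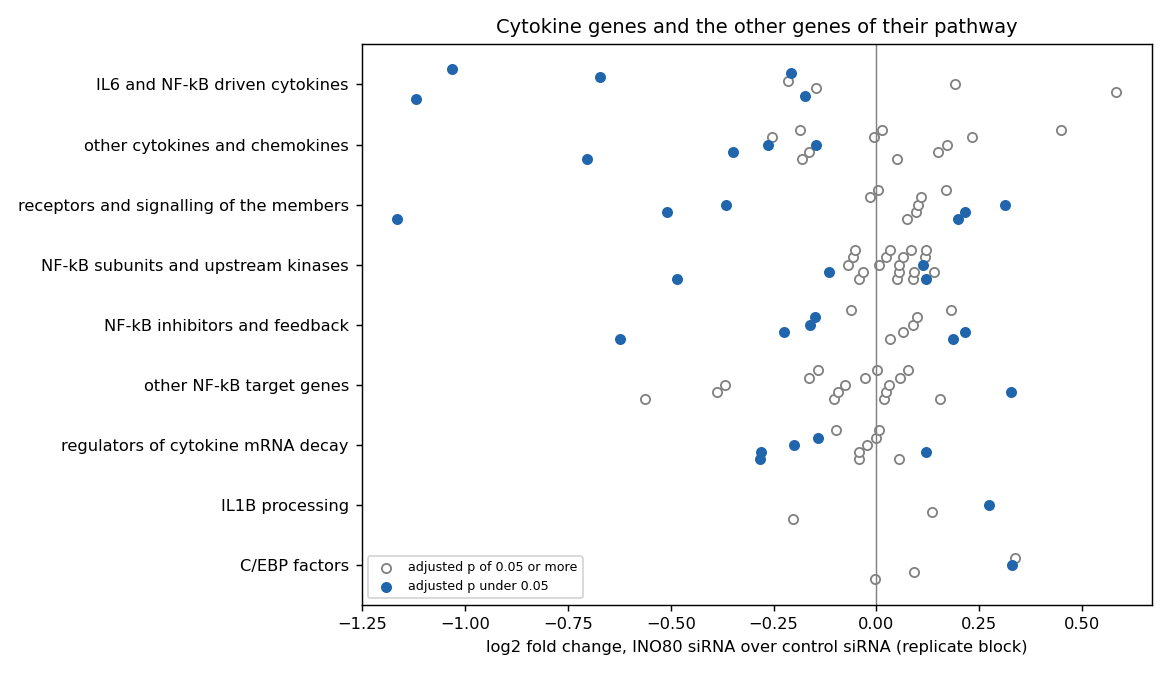
Log2 fold change of INO80 siRNA over control siRNA with the replicate block (horizontal axis) for the 9 cytokine genes in the top line and for the 98 tested genes of 8 pathway lists below it. Each point is 1 gene, filled where the adjusted p was under 0.05. IL6 and IL23A lie at -1.12 and -1.03, and in the lists IL1R2 lies beyond -1, at -1.16 from levels of at most 1.03 CPM.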

How the data were processed

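Per the labels, mRNA of HK-2 cells was sequenced 48 h after transfection. The authors deposited 1 table with raw read counts and FPKM per gene and library. The paper names ELAND and hg38, while the submitters' processing notes name HISAT2 2.0.1, HTSeq and hg19, and the coordinates in the table are those of GRCh37 (hg19). The counts as deposited were fitted in R 4.3.3 with edgeR 4.0.16 (filterByExpr by group, TMM, quasi-likelihood test, replicate number and treatment as terms). The fit had 2 residual degrees of freedom, and the spread was shared across genes with 23.5 prior degrees of freedom. The FPKM values as deposited served for levels between genes only. P-values of the fit with the block measure the spread left between these libraries after differences by replicate number are taken out. That spread may be technical.

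Pairing by replicate number was examined through each library's deviations from its group mean. The correlation of these deviations across genes was 0.581, 0.365 and 0.360 for replicates 1, 2 and 3, and at most 0.152 between different numbers. The numbers come from the sample titles.

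The cytokine genes, the pathway and marker lists and the rules were chosen with earlier results of these data known. Genes named are the cytokine genes, INO80, genes that overlap them, fixed members of each list (such as RELA, NFKBIA, TNF and the receptors), up to 4 called genes per list with the smallest p, and the 5 genes most like IL6. ICAM1, CEBPB, the further genes called and the markers were named after their values were seen. The alternatives were no block, DESeq2 1.42.0 with the block, median-ratio scaling, other filters and each library left out. Leaving out replicate 1 of both groups was added after seeing the data. The edgeR step was tested on simulated data with a shift by replicate number built in, so that test does not check the choice of the block. Promoters came from RefSeq tables, and the sequence reads were not analysed here.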

Additional observations from a re-analysis of the deposited data

How the results depend on the processing

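The replicate block decided the calls. Without it 268 genes were called in place of 3798, 228 lower and 40 higher in place of 2050 and 1748, with 0 of the 9 cytokine genes in place of 5 and 2 pathway genes in place of 28. The 12 alternatives are not independent. With the block, leaving out 1 library in effect takes its whole replicate pair out of the treatment difference. IL8, for example, had a log2 fold change of -0.32 without control siRNA replicate 1, without INO80 siRNA replicate 1 and without both. IL6, CCL20, LIF and IL23A were called under 11 of 12 alternatives, the exception being the fit without the block, and IL8 under 6 of 12. CXCL2 was called in 2, with median-ratio scaling and with genes averaging 1 FPKM or more. CXCL1, CXCL3 and CCL2 were called under none of the alternatives run, and DESeq2 gave CXCL1 no adjusted p. No log2 fold change of the 9 genes changed sign. DESeq2 with the block called 1852 genes (1161 lower and 691 higher) and 17 pathway genes, and 1969 genes for the replicate number. Without a filter on low counts 1837 genes were lower and 1878 higher. Without replicate 1 of both groups 1741 genes were called for the replicate number in place of 4104. With the limit on the fold change 2 cytokine genes were called. With each library left out in turn, 2324 to 3622 genes, 4 to 5 cytokine genes and 16 to 27 pathway genes were called, the lowest without control siRNA replicate 3 (2447 genes and 16 pathway genes) and without INO80 siRNA replicate 3 (2324 genes and 16 pathway genes). INO80 stayed lower in every fit, at a log2 fold change of -1.98 to -1.84. After removal of the group means 2 of the 5 genes most like IL6 stayed. The cause of these differences was not tested. CXCL1 and IL1B are limited by depth.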

Other observations

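CXCL10, a chemokine gene induced by interferon and named here after its values were seen, did not pass the filter on low counts. It had 5, 7 and 17 reads in control siRNA replicates 1, 2 and 3 and 1, 6 and 31 reads in INO80 siRNA replicates 1, 2 and 3, so that replicate 3 held the most reads and replicate 1 the fewest in both groups. CCL5, which encodes a chemokine for T cells, had 1, 8 and 8 reads and 2, 4 and 11 reads in the same libraries. Both genes were low in replicate 1 in either group, as CCL2 was, and no test was run on them.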
